A study of Mus musculus with 15 samples.

Results

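The genes examined here code for the antigen receptor complexes of B and T cells and for surface proteins that mark these cells. They were taken by gene symbol, and 9 of the 43472 symbols in the count tables are members. The B cell members are Ighm, Cd79a, Cd79b and Ms4a1, and the T cell members are Cd3d, Cd3e, Cd3g, Cd8a and Cd4. RNA of circulating extracellular vesicles (EVs), the membrane particles that cells release into the blood, had been sequenced in 15 libraries. Of these, 3 came from WT mice, 6 from dystrophic mice that lack beta-sarcoglycan (Sgcb null) and 6 from hypertrophic mice. Each library held the EVs of 2 to 3 mice aged 3 to 6 months, and the WT mice were C57BL/6. The methods of the study give the hypertrophic mice of the RNA-seq as Mstn-null, which lack the muscle growth inhibitor myostatin. By the labels their genotype is MAGIC F1, a transgene that activates the Met receptor, so that here only the condition was used. The labels and the methods also differ on serum or plasma.

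The B cell receptor is an immunoglobulin, the membrane form of which sits in a complex with the signalling chains CD79A and CD79B. The T cell receptor binds antigen with its alpha and beta chains and signals through the CD3 chains, and the coreceptors CD4 and CD8 mark helper and cytotoxic T cells. Lymphocytes circulate in blood together with platelets, red cells and their vesicles, and EV preparations from blood can carry RNA of all of them.

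The libraries held 27227 to 32563362 reads assigned to genes, and 797 to 8968 genes had at least 1 read. Levels are given as CPM, the reads of a gene per 1000000 reads assigned to genes in its library. WT replicate 1 held the 27227 reads, so that a single read there equals 36.7 CPM and a count of 0 allows up to 110 CPM (3 counts). In the other libraries a count of 0 allows between 0.0921 and 9.13 CPM. These limits cover counting error only, since the RNA was amplified and copies are not separate molecules. In 6 libraries (replicates 4 to 6 of the dystrophic and 1 to 3 of the hypertrophic group) title and count table carried different library numbers, crossed between these conditions. Groups follow the labels, and the comparisons were also computed with these 6 libraries exchanged and left out.

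The B cell members were counted far more often than the T cell members. The contrast was smaller over the further genes of these pathways described below, which include genes that platelets also use. Of those, a median of 12 of 22 B cell genes and 8 of 23 T cell genes was counted per library. A member had at least 1 read in 49.6% of the 135 pairs of a gene and a library, that is, in 76.7% of the 60 B cell pairs and in 28.0% of the 75 T cell pairs. Cd79b was counted in 14 libraries, Ighm in 13, Cd79a in 10 and Ms4a1 in 9. Among the T cell members, Cd3d was counted in 10 libraries, Cd8a in 5, Cd3g in 3, Cd4 in 2 and Cd3e in 1. For reference, 3.55% of the 13281 genes that had a read in any library were counted in at least 13 libraries, the number for Ighm, and 9.68% in at least 10.

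**Figure D1:**
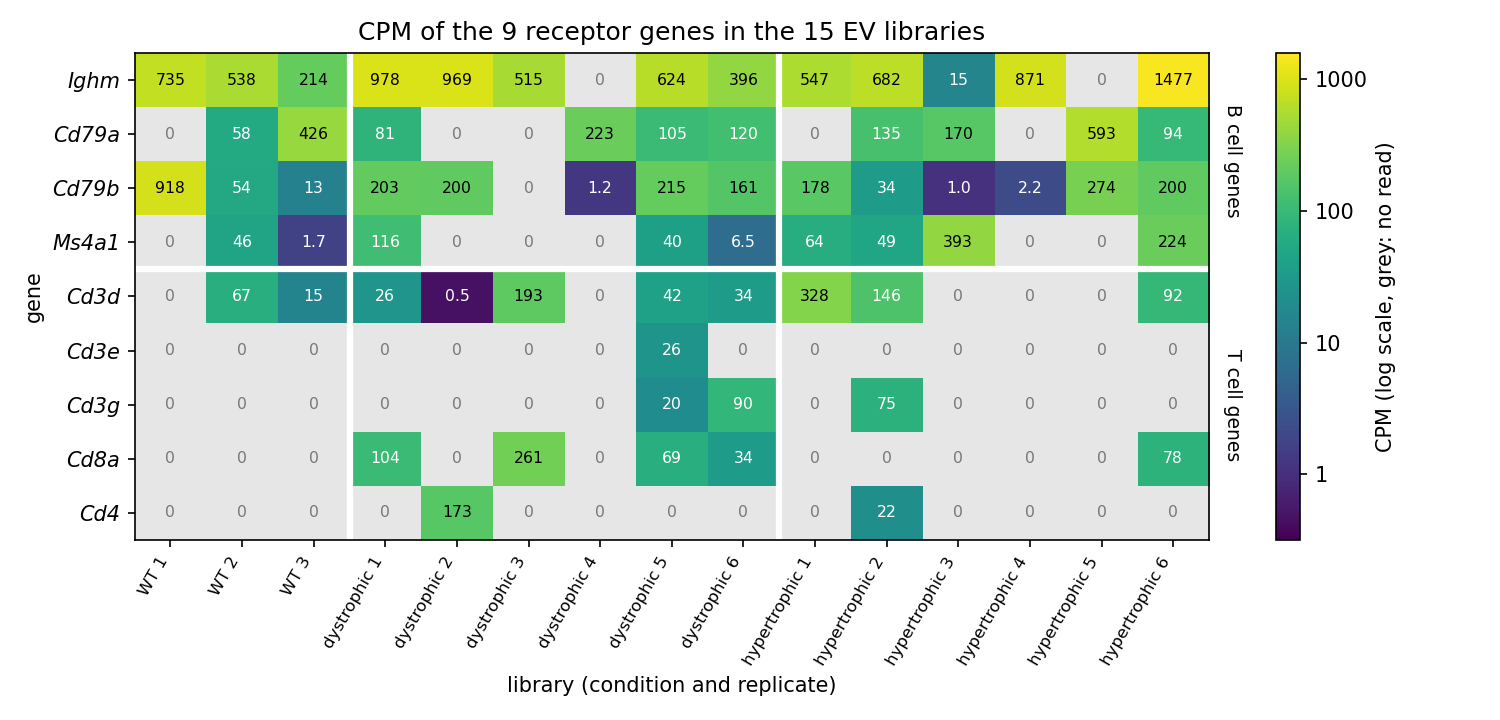
CPM of the 9 genes (rows) in the 15 libraries (columns), with colour on a log scale and grey for libraries without a read. The upper 4 rows are mostly filled, while the lower 5 rows are mostly grey, and WT libraries hold Cd3d as their only T cell gene.

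Members were seldom counted with few reads. Of the 135 pairs, 68 were at 0, 7 held 1 to 9 reads and 60 held at least 20 reads. Those 60 pairs had levels from 6.54 to 1477 CPM, with a median of 153 CPM. The reads of a gene in a library were predicted from its mean CPM in the other libraries of the same condition. By this measure 98 pairs had a prediction of at least 10 reads, and 38 of them (38.8%) were at 0. This was the case for 12 of 56 B cell pairs (21.4%) and for 26 of 42 T cell pairs (61.9%). Over all genes the share was 56.1% of 90572 pairs.

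Ighm, the constant region of the immunoglobulin M heavy chain, had the highest level. The gene lies on chr12:113418558-113422730 on the minus strand (GENCODE M21, the mm10 build), and membrane and secreted IgM share most of the counted exons, so that gene counts do not separate them. In the WT libraries Ighm stood at 735, 538 and 214 CPM. The 6 dystrophic libraries ran from 0 to 978 CPM with a median of 570 CPM, and the 6 hypertrophic libraries from 0 to 1477 CPM with a median of 615 CPM. Dystrophic replicate 4 and hypertrophic replicate 5 had no Ighm read at depths of 1608699 and 328710 reads, and hypertrophic replicate 3 stood at 15.2 CPM. The means were 496 ± 263 CPM (SD, n = 3) in WT, 580 ± 370 CPM (SD, n = 6) in dystrophic and 599 ± 558 CPM (SD, n = 6) in hypertrophic libraries. All 3 groups overlapped, and the SD of the dystrophic and of the hypertrophic group exceeded every difference between the means.

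Cd79a and Cd79b code for the paired chains that carry the signal of the B cell receptor. Cd79a (chr7:24897381-24902197, plus strand) stood at 0, 57.8 and 426 CPM in WT. It ran from 0 to 223 CPM with a median of 93.0 CPM in dystrophic and from 0 to 593 CPM with a median of 115 CPM in hypertrophic libraries. The highest value, 593 CPM, belonged to hypertrophic replicate 5, which lacked Ighm. Dystrophic replicate 4, the other library without Ighm, held 223 CPM of Cd79a, the highest value of its group. Ighm was counted without Cd79a in 5 libraries, Cd79a without Ighm in 2, and both in 8.

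Cd79b (chr11:106311341-106314762, minus strand) stood at 918, 53.6 and 13.3 CPM in WT, where the 918 CPM are 25 reads of WT replicate 1 (95% Wilson interval 622 to 1355 CPM). It ran from 0 to 215 CPM with a median of 180 CPM in dystrophic and from 1.049 to 274 CPM with a median of 106 CPM in hypertrophic libraries. Each of the 10 libraries with Cd79a also had Cd79b, while 4 libraries had Cd79b alone and 1 had neither. The levels of the chains did not keep a fixed ratio. Over these 10 libraries, the CPM of Cd79a divided by that of Cd79b ran from 0.399 to 180 with a median of 1.62, and Cd79a was the higher in 6. The largest ratios came from dystrophic replicate 4 and hypertrophic replicate 3, each with 2 reads of Cd79b.

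Ms4a1, the gene of the B cell surface protein CD20, lies on chr19:11249675-11266241 on the minus strand. It stood at 0, 45.9 and 1.66 CPM in WT, the last from 1 read. In dystrophic libraries it ran from 0 to 116 CPM with a median of 3.27 CPM, and in hypertrophic libraries from 0 to 393 CPM with a median of 56.7 CPM. The gene was at 0 in 3 dystrophic and in 2 hypertrophic libraries, and the groups overlapped. An annotated gene on the opposite strand, 4930526L06Rik, spans it and had no read in any library.

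**Figure D2:**
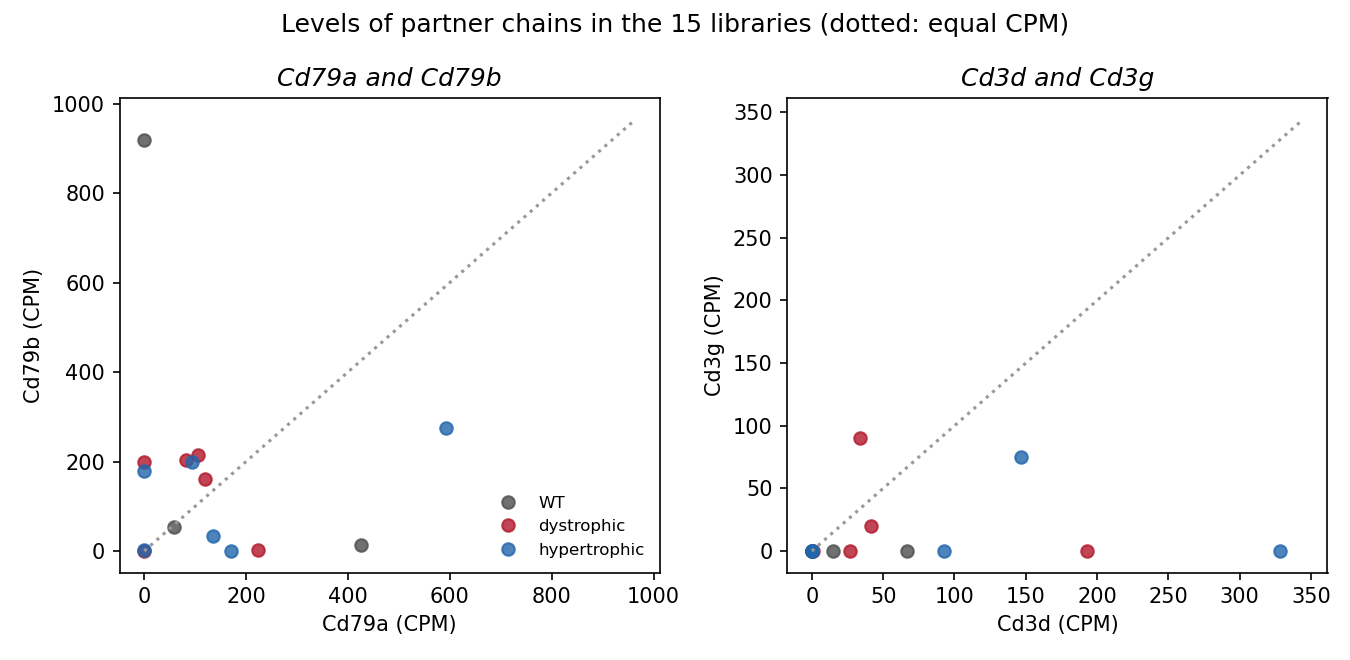
CPM of Cd79b against Cd79a (left) and of Cd3g against Cd3d (right), 1 point per library, coloured by condition, with the dotted line at equal CPM. Points lie on both sides of the line for Cd79a and Cd79b, with ratios from 0.399 to 180, and most points of the right panel lie at 0 for Cd3g.

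Cd3d, Cd3e and Cd3g code for the delta, epsilon and gamma chains of CD3 and lie next to each other on chromosome 9. Cd3d (chr9:44981786-44987339, plus strand) and Cd3g (chr9:44969572-44980431, minus strand) are read away from each other from starts 1355 bases apart, and Cd3e (chr9:44998740-45009627, minus strand) starts 27841 bases from Cd3d. The 250 bases before the start of Cd3d and of Cd3g are shown because these neighbours lie head to head and yet were counted in 10 and in 3 libraries. The windows are RefSeq sequence of the GRCm38.p6 build, each 5′ to 3′ on the strand of its gene, and the capitals mark GGAA or its reverse complement TTCC, the core to which ETS transcription factors bind.
Cd3d, chr9:44981536-44981785, plus strand: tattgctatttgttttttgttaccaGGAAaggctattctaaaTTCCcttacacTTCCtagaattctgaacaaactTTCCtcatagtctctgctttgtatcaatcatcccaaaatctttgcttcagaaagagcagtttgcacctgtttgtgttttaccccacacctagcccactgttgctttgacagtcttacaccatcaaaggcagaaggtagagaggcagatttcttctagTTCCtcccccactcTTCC
Cd3g, chr9:44980432-44980681, minus strand: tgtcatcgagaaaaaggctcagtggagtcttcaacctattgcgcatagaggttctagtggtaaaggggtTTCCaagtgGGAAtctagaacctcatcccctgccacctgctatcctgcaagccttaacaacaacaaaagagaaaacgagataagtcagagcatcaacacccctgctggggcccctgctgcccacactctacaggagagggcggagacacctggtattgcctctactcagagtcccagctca
GGAA was found on either strand 6 times before Cd3d and 2 times before Cd3g, and 93.4% of the 32851 promoter windows of the table hold it. The E-box CANNTG was found 1 time and 3 times (66.2% of the windows). TATAAA (12.4% of the windows) and the octamer ATGCAAAT (1.60%) were found in neither window on either strand. Both the matches and the shares refer to the 250 bases before a start and are letter matches only.

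Cd3d was the most often counted of the T cell members. It stood at 0, 66.7 and 14.96 CPM in WT. In dystrophic libraries it ran from 0 to 193 CPM with a median of 30.3 CPM, and in hypertrophic libraries from 0 to 328 CPM with a median of 46.2 CPM. Of the hypertrophic libraries, 3 had no Cd3d read and the other 3 held 92.4, 146 and 328 CPM.

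The other CD3 chains were counted only where Cd3d was. Cd3g stood at 20.1 CPM in dystrophic replicate 5, at 90.3 CPM in dystrophic replicate 6 and at 75.2 CPM in hypertrophic replicate 2. Cd3e was counted only in dystrophic replicate 5, at 25.6 CPM from 74 reads, which made this the only library with all 3 CD3 chains. GENCODE M21 places 2 further genes, Gm48719 on the opposite and Gm48720 on the same strand, over Cd3e, which have no symbol in the tables. Counting can leave out reads where genes overlap only if both genes are in the annotation used for counting. An effect of these 2 genes on the level of Cd3e was not tested. The largest library, dystrophic replicate 6, had 0 Cd3e reads of 32563362, which allows up to 0.0921 CPM.

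Cd8a, the alpha chain of the coreceptor of cytotoxic T cells, lies on chr6:71373427-71379173 on the plus strand. It was at 0 in all 3 WT libraries. Of the dystrophic libraries, 4 held 104, 261, 68.5 and 33.7 CPM and 2 were at 0, which gives a median of 51.1 CPM. Of the hypertrophic libraries, replicate 6 alone held it, at 78.3 CPM. WT replicate 2, with 7738568 reads, allows at most 0.388 CPM, whereas WT replicate 1 allows 110 CPM, more than the level of 3 of the 4 dystrophic libraries.

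Cd4, the coreceptor of helper T cells, lies on chr6:124864692-124888221 on the minus strand. It was counted in dystrophic replicate 2, at 173 CPM from 373 reads, and in hypertrophic replicate 2, at 21.7 CPM from 126 reads. No library held both coreceptors, although 5 held Cd8a and 2 held Cd4, and each of these 7 libraries also held Cd3d. In dystrophic replicate 2 this was 1 read of Cd3d (0.463 CPM). Monocytes can also carry CD4, and some dendritic cells carry CD8 alpha chains. Cd8b1, the partner chain of Cd8a, was counted in 5 libraries, 4 of them with Cd8a.

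Ordered by mean CPM over the 15 libraries, Ighm (571 ± 414 CPM, SD, n = 15) ranked 207 among the counted genes and was followed by Cd79b (rank 706) and Cd79a (rank 867). Cd3d (rank 1951) and Ms4a1 (rank 1958) were next, then Cd8a (rank 3163), Cd4 (rank 5943), Cd3g (rank 6073) and Cd3e (rank 10555). Every pair of neighbours in this order differed by less than the SD of the higher one. Ighm exceeded Cd79b in 12 of 15 libraries, and Cd79b exceeded Cd79a in 8 and lay below it in 6. Per kilobase of merged exon, a scale that corrects for gene length, the mean was 303 CPM per kb for Ighm, 114 for Cd79b, 91.8 for Cd79a, 34.7 for Cd3d, 10.14 for Ms4a1 and 10.01 for Cd8a. Cd3g (3.78 CPM per kb), Cd4 (3.22) and Cd3e (0.418) closed this order, which moved Ms4a1 with its 6187 bases of exon to the level of Cd8a.

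The B cell members together exceeded the T cell members in each of the 15 libraries. Their summed level ran from 224 to 1995 CPM with a median of 867 CPM, and that of the T cell members from 0 to 454 CPM with a median of 131 CPM. In 5 libraries no T cell member had a read. In the other 10, the summed B cell level was 1.13 to 43.8 times the T cell level, with a median of 6.53 times. The smallest ratio came from dystrophic replicate 3, with 515 CPM, all of it Ighm, against 454 CPM of Cd3d and Cd8a. Without Ighm, the B cell sum was the higher in 12 of 15 libraries and the median ratio was 2.06. The exceptions were dystrophic replicate 3 and hypertrophic replicates 1 and 2. Per kilobase of exon, the B cell members were higher in all 15 libraries with a median ratio of 10.2. These are descriptions of gene sets of unequal size and carry no test. The B cell set holds a chain that binds antigen, Ighm, whereas the T cell set holds only CD3 chains and coreceptors. In dystrophic replicate 4, with a B cell sum of 224 CPM, the T cell receptor chain Trbc2 outside the set stood at 699 CPM. The light chain Igkc, outside the B cell set, stood there at 283 CPM. In the 5 libraries, the further T cell genes described below summed to 110 (WT replicate 1), 1178 (dystrophic replicate 4), 336, 3873.5 and 1387 CPM (hypertrophic replicates 3 to 5). The further B cell genes summed to 73.5, 1128, 719, 3319 and 3033 CPM in this order. In hypertrophic replicate 4, Cd247 alone stood at 1251 CPM. In bulk RNA, fewer vesicles of a cell type and less of its RNA per vesicle cannot be told apart.

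**Figure D3:**
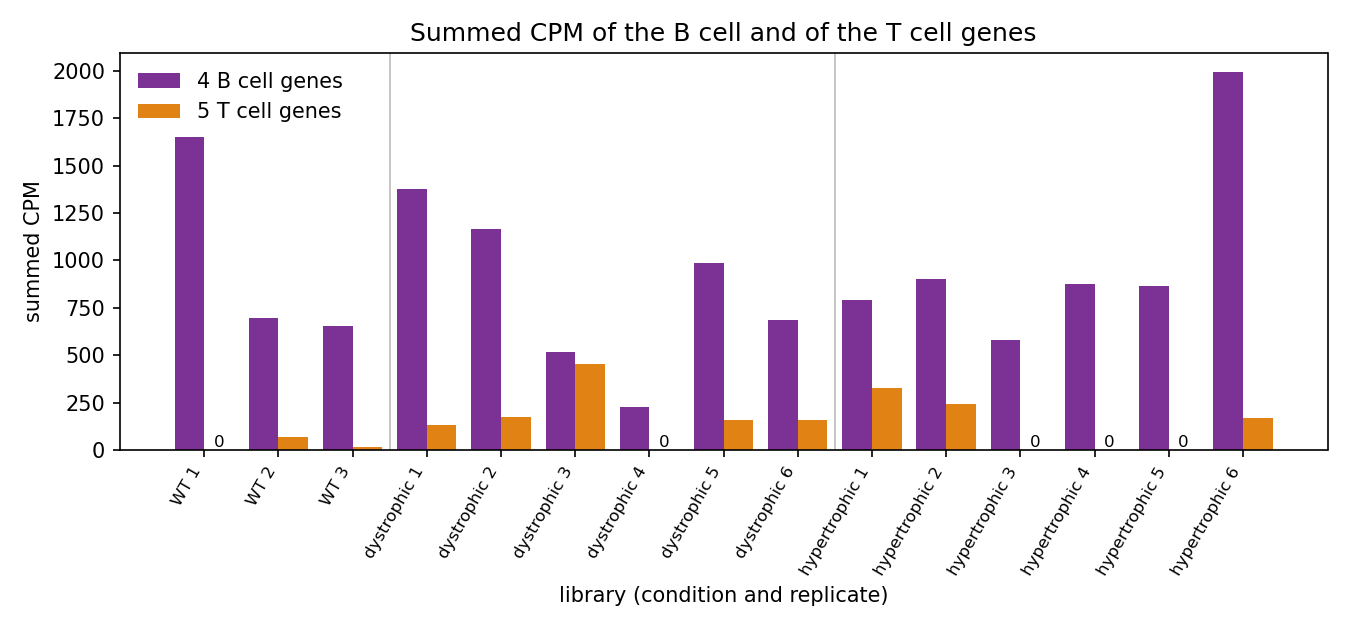
Summed CPM of the 4 B cell genes and of the 5 T cell genes in each of the 15 libraries, on a linear axis from 0. The B cell bar is the higher in every library, the T cell bar is at 0 in 5 of them, and dystrophic replicate 3 has bars of 515 and 454 CPM.

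The 5 libraries without a T cell member held 27227 to 1906406 reads, and the 10 with at least 1 held 601506 to 32563362 reads. In the number of all genes with a read these libraries did not overlap, with 797 to 1967 genes in the 5 and 2415 to 8968 genes in the 10. The WT, dystrophic and hypertrophic libraries held a mean of 3.33, 2.83 and 3.17 of the 4 B cell members. The mean number of T cell members was 0.667, 2.17 and 1 of 5. At an equal depth of 27227 reads per library, the expected number of T cell members was 0.393 ± 0.421 (SD, n = 3), 1.51 ± 0.898 (SD, n = 6) and 0.850 ± 1.02 (SD, n = 6). At 328710 reads, which leaves out WT replicate 1, it was 0.9996, 2.03 and 0.9999. The number for a single library ran from 0 to 4 within the dystrophic group. Without hypertrophic replicate 2 the hypertrophic mean of T cell members was 0.6 in place of 1, and without WT replicate 1 the WT mean was 1 in place of 0.667. The mean number of all genes counted was also the highest in dystrophic libraries, at 5039 ± 3094 (SD, n = 6), beside 2875 ± 2031 (SD, n = 3) in WT and 3144 ± 2071 (SD, n = 6) in hypertrophic libraries, and its part in the number of T cell members was not tested. No test was made of these numbers.

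**Figure D4:**
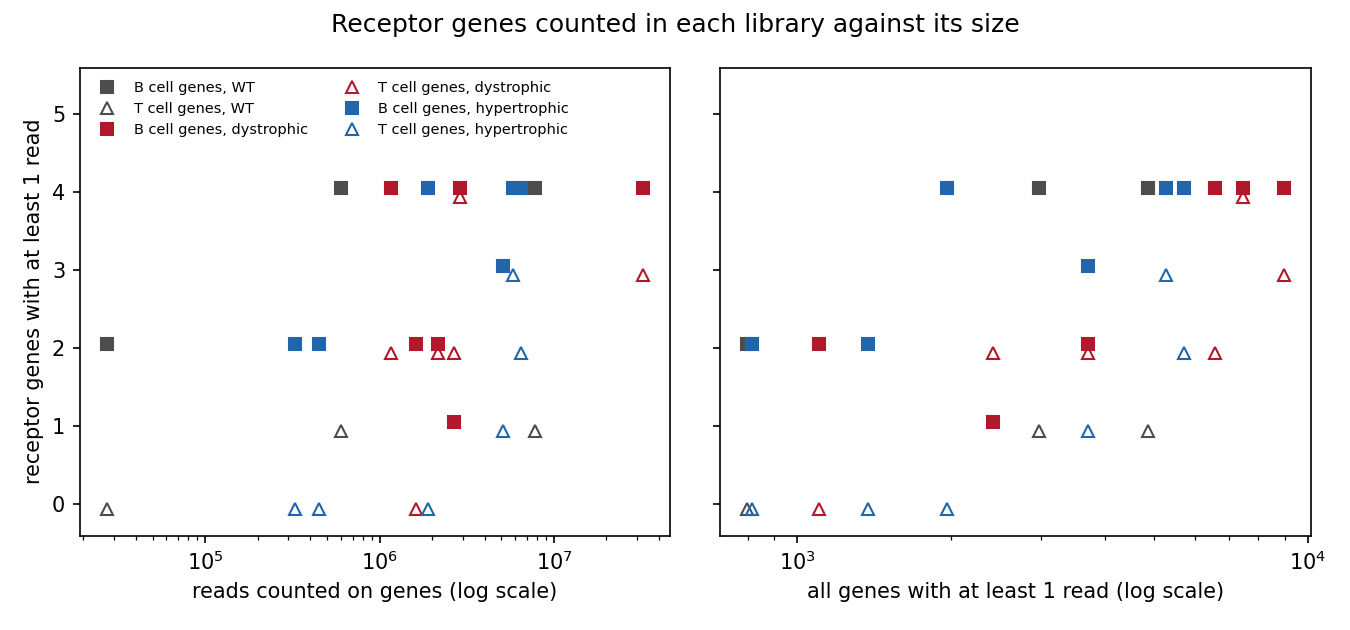
Number of B cell genes (squares) and T cell genes (triangles) with at least 1 read in each library, against the reads counted on genes (left) and the number of all genes with a read (right), both on log axes. The 5 libraries with 797 to 1967 counted genes lack T cell genes, and libraries with 2 B cell genes lie between 27227 and 2158538 reads.

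Libraries rarely shared the same set of members. All 4 B cell members were counted in 8 libraries and all 5 T cell members in 0, with dystrophic replicate 5 holding 8 of the 9 members. Among the 15 libraries there were 11 different sets, and no 2 of the 9 genes were counted in the same set of libraries.

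No member passed a test of its level between the conditions. By the exact two-sided permutation test of the mean CPM, adjusted over all 13281 genes, 0 of 9 members passed in each of the 3 comparisons, as did 0.00% of all genes. The smallest p the design allows is 0.0238 against WT and 0.00216 between the dystrophic and the hypertrophic group. Adjusted over 13281 genes, such a p passes only if a great many genes reach it together. The adjusted 0 therefore says little about a single member, least of all against WT. At an unadjusted p under 0.05 there were also 0 members, against 0.685% of all genes for dystrophic against WT, 0.414% for hypertrophic against WT and 1.70% for hypertrophic against dystrophic. The nearest to it was Cd8a, with 13.1 ± 31.97 CPM (SD, n = 6) in hypertrophic against 77.9 ± 98.4 CPM (SD, n = 6) in dystrophic libraries, and an exact permutation p of 0.152. Against WT, Cd8a in dystrophic libraries gave an exact permutation p of 0.238, as did Ms4a1 in hypertrophic libraries (122 ± 156 CPM, SD, n = 6, against 15.8 ± 26.0 CPM, SD, n = 3). Over all libraries, for no member did the values of a pair of conditions fail to overlap, which was so for 0.422%, 0.233% and 0.0828% of all genes in the same order of comparisons.

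**Figure D5:**
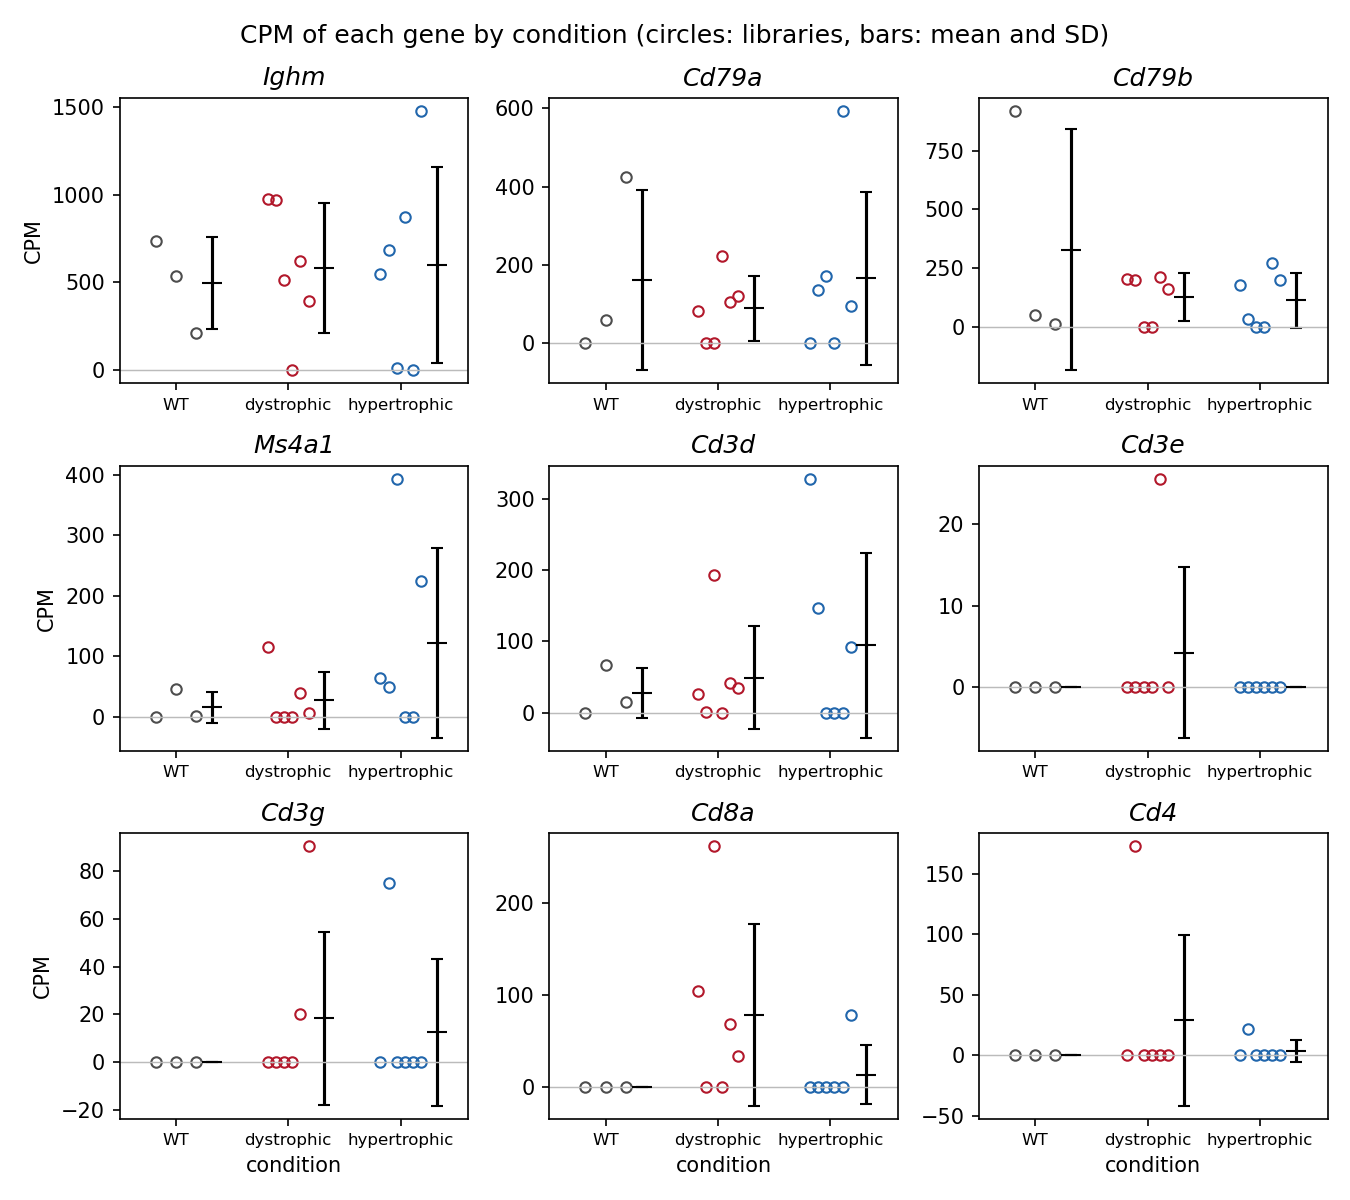
CPM of each of the 9 genes by condition, 1 circle per library, with the mean and SD (n = 3, 6 and 6) beside each group. The groups overlap for each gene, Cd8a holds 4 of 6 dystrophic libraries above 0 and no WT library, and the linear axes differ between panels.

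Nor did a member pass a test of how often it was counted. By Fisher's exact test, two-sided, 0 of 9 members passed after adjustment over all 13281 genes, as did 0.00% of all genes in each comparison. The smallest p of this test is 0.0119 against WT and 0.00216 between the other groups, so that its adjusted 0 says as little. Unadjusted, 0 members had a p under 0.05, against 0.565%, 0.136% and 0.188% of all genes. The smallest exact p was that of Cd8a, counted in 4 of 6 dystrophic and 0 of 3 WT libraries (Fisher's exact test, p = 0.167), and in 1 of 6 hypertrophic libraries (p = 0.242 against dystrophic, Fisher's exact test).

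With edgeR's quasi-likelihood test, 7 of the 9 members passed the filter on low counts, and Cd3e and Cd4 did not. Of the 7, 0 passed an adjusted p of 0.05 in any comparison, against 0.0145%, 0.0290% and 0.0145% of the 6887 genes tested. At an unadjusted p under 0.05 the members numbered 0 as well, against 2.02%, 8.02% and 12.0% of genes. Ighm had a log2 fold change of 0.36 (SE 1.51) for dystrophic against WT, 0.28 (SE 1.51) for hypertrophic against WT and -0.08 (SE 1.21) for hypertrophic against dystrophic. The sign of the last turned without TMM scaling (0.04). Cd3d had 0.29 (SE 3.01), 1.46 (SE 3.19) and 1.17 (SE 2.46) in the same order. The median log2 fold change of all 6887 genes was 1.38, 0.66 and -0.52, and without TMM 1.57, 1.02 and -0.37, and in both comparisons with WT the value of Ighm was the smaller. For the 4 B cell members together the median was -0.09, -0.25 and 0.07. Replicate libraries spread widely, with a biological coefficient of variation of 3.04 over the genes tested.

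DESeq2 gave another answer for 2 members. It called Cd3g and Cd8a in both comparisons with WT, and 0 members for hypertrophic against dystrophic. Both genes had 0 reads in all WT libraries, and in hypertrophic libraries each was counted in 1 of 6. The tool called 21.1%, 24.5% and 5.17% of the genes to which it gave an adjusted p, With the crossed libraries exchanged, edgeR, the permutation test and Fisher's test gave 0 members. With them left out edgeR gave 0 members as well, and the exact tests cannot go below 0.1 in those groups of 3.

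The library numbers in the titles form a lower and a higher series. Within the lower series, the only one with WT libraries, the mean number of T cell members was 0.667 in 3 WT, 2 in 3 dystrophic and 1.33 in 3 hypertrophic libraries. In the higher series it was 2.33 in 3 dystrophic and 0.667 in 3 hypertrophic libraries. No member passed any of the 3 tests within the lower series, where with 3 libraries a group neither exact test can go below 0.1. There the values of Ms4a1 did not overlap between hypertrophic libraries (49.5 to 393 CPM) and WT libraries (0 to 45.9 CPM), which was so for 2.10% of all genes.

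Of 24 further B cell receptor genes, 22 had a row in the tables and all 22 were counted at least once. Their mean CPM was higher in dystrophic than in WT libraries for 15 of 22 (68.2%), where 71.4% of all 13281 genes were higher. The list's median difference was 12.9 CPM, against 4.21 CPM over all genes. For hypertrophic against WT 14 of 22 were higher (all genes 51.1%), and for hypertrophic against dystrophic 11 of 22 (all genes 36.7%). By edgeR, 0 of the 20 tested had an adjusted or an unadjusted p under 0.05 in any comparison. DESeq2 called 0, 1 and 0 of the 19 to which it gave an adjusted p, for dystrophic against WT, hypertrophic against WT and hypertrophic against dystrophic. The 4 with the highest mean CPM were Iglc2 and Igkc, the constant regions of light chains, and the kinases Syk and Lyn, which act below the receptor. Igkc, the kappa light chain, stood at 0, 149 and 1152 CPM in WT, and over all libraries it was counted in 12 with a median of 210 CPM. Iglc2, a lambda light chain, was counted in 13 with a median of 236 CPM and a highest value of 1816 CPM in hypertrophic replicate 5. Igkc was counted with Ighm in 11 libraries. Iglc2 shares sequence with other lambda constant genes, so that its count is uncertain. Syk was counted in 12 and Lyn in 14 libraries with median levels of 70.2 and 165 CPM.

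Of 24 further T cell receptor genes, 23 had a row and 22 were counted, all but Trat1. In the 3 WT libraries 10 of the 22 were counted at least once, in the 6 dystrophic libraries 22 and in the 6 hypertrophic libraries 16. Of all 13281 genes, 45.2%, 89.5% and 67.4% were counted at least once in these libraries. Mean CPM was higher in dystrophic than in WT libraries for 20 of 22 (90.9%, all genes 71.4%), with a median difference of 28.7 CPM (all genes 4.21 CPM). It was higher in hypertrophic than in WT libraries for 13 of 22 (all genes 51.1%) and than in dystrophic libraries for 9 of 22 (all genes 36.7%). By edgeR, 0 of the 18 tested had an adjusted p under 0.05. Unadjusted, 2 passed for hypertrophic against WT (Cd247 and Il7r) and 2 for hypertrophic against dystrophic (Trbc1 and Zap70), which is 2 of 18 beside 8.02% and 12.0% of all genes, and 0 for dystrophic against WT. Cd247 was counted in 1 of 6 hypertrophic libraries, replicate 4, with 564 reads, and Il7r in 2, and both were at 0 in WT. Hypertrophic replicate 4 held no T cell member. DESeq2 called 4, 3 and 1 of 14 in the order given for the B cell list, next to the shares of all genes it called above.

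The 4 with the highest mean CPM were Prkcq, a kinase below the T cell receptor, Fyn, a Src family kinase, Tcf7, a transcription factor of T cells, and Il7r, a receptor of the cytokine IL-7. Prkcq was counted in all 15 libraries with a median of 56.2 CPM, Fyn and Tcf7 each in 10, and Il7r in 5. The level of Il7r came mostly from hypertrophic replicate 5, at 1381 CPM. The constant regions of the receptor's own chains were named after their values were seen. Trbc2 was counted in 6 of 6 dystrophic, 1 of 3 WT and 1 of 6 hypertrophic libraries, with an edgeR adjusted p of 0.499 for hypertrophic against dystrophic, and Trac in 2 dystrophic libraries at 26.9 and 6.11 CPM. Dystrophic replicate 4, which had no T cell member, held 699 CPM of Trbc2, the highest level of that gene.

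The genes with the pattern most like that of the leading members were looked for among the 6887 genes that passed the filter, by Spearman's correlation of CPM over the 15 libraries. For Ighm these were 2010107E04Rik (rho 0.80), Chd3 (0.78) and Chp1 (0.77). For Cd3d they were Sept7 (0.96), Stk4 (0.95) and Slbp (0.95), each counted in 9 of the 10 libraries with Cd3d. The other members had lower values, with rho against Ighm of -0.64 for Cd79a, 0.39 for Cd79b and 0.22 for Ms4a1, and rho against Cd3d of 0.46 for Cd8a and 0.31 for Cd3g. All points share library size and many zeros, and the values describe these libraries.

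Each library held at least 1 marker of red cells, of platelets, of neutrophils, and of monocytes and macrophages. The numbers in brackets are markers counted in at least 1 of the 15 libraries. Erythroid markers (6 of 6, led by Hbb-bs and Hba-a1) summed to 22902 to 88148 CPM in WT, 47060 to 155950 CPM in dystrophic and 29999 to 88291 CPM in hypertrophic libraries. Platelet markers (6 of 6, led by Ppbp and Pf4) summed to 18361 to 28281, 9575 to 20524 and 14290 to 32963 CPM in the same order. Platelets also use Syk, Lyn and Fyn, so that the further pathway lists hold genes that are not particular to lymphocytes. The part of platelets in the levels of these lists was not tested. Neutrophil markers (5 of 6, led by S100a9 and S100a8) summed to 235 to 1836, 72.1 to 933 and 6.65 to 1101 CPM. A median of 2 of the 6 was counted per library. Retnlg was counted in 4 libraries, Ngp in 2, Ltf in 1 and Camp in 0. Monocyte and macrophage markers (6 of 6, led by Lyz2 and Cd68) summed to 201 to 946, 447 to 2298 and 924 to 3432 CPM. Most of this was Lyz2, with a mean of 1185 CPM against 17.2 CPM for Cd68. A median of 1 of the 6 was counted per library, and Csf1r, Cd14 and Ly6c2 were each counted in 1 library.

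Markers nearer to the lymphocytes were sparse. NK cell markers (6 of 6, led by Gzma and Klrb1c) summed to 0 to 51.7 CPM in WT, 0 to 252 CPM in dystrophic and 0 to 1326 CPM in hypertrophic libraries. The 1326 CPM were Gzma alone in hypertrophic replicate 4, and the hypertrophic median was 1.75 CPM. Plasma cell markers (4 of 6, led by Mzb1 and Xbp1) summed to 0 to 315, 0 to 357 and 0 to 426 CPM. Of the others, Sdc1 was counted in 3 libraries (up to 85.3 CPM) and Jchain in 2 (up to 311 CPM). Tnfrsf17 and Prdm1 were at 0 in all libraries. Dendritic cell markers (3 of 6, led by Clec9a and Itgax) summed to 0 in WT, 0 to 53.6 CPM in dystrophic and 0 to 41.2 CPM in hypertrophic libraries, with Flt3, Siglech and Xcr1 at 0 throughout. The labelled material, vesicles of blood, has no defining RNA marker here. The part of these cell types in the levels of the members was not tested.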

How the data were processed

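EV RNA-seq count tables of 15 mouse libraries were used. Per the study's methods, EV RNA of 2 to 3 pooled mice was amplified, sequenced as single reads of 50 bases and aligned with TopHat to mm10. The submitters' processing notes also name HTSeq and DESeq, with no versions used here. The authors deposited raw read counts per gene symbol without normalization. The labels name a stranded and the methods an unstranded kit, and the strand setting of the counting is not given in the sources used here. The 5 summary lines of each table, 57.9% to 99.2% of its numbers, name no gene and were left out. All 43472 symbols were used for CPM, and every column was a labelled sample.

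Positions, exon lengths and identifiers came from GENCODE M21 (9 of 9 members matched) and promoter windows from RefSeq (GRCm38.p6). All tests were run over all genes with Benjamini-Hochberg adjustment: exact two-sided permutation tests of mean CPM, Fisher's exact tests of detection (at least 1 count), and edgeR 4.0.16 (R 4.3.3, limma 3.58.1) with TMM, filterByExpr and a quasi-likelihood fit to the 15 libraries. Standard errors were derived from the F statistic. Expected detection at equal depth came from the hypergeometric distribution. Intervals are 95% Wilson intervals. DESeq2 1.42.0 and the other alternatives are given in the closing section. Scripts in Python 3.11.15 and R were tested on simulated data. The counts simulated for edgeR spread far less than these libraries, so that its test does not cover a spread like theirs. The genes and lists were chosen with earlier results of these data known. Named were the 9 members, of each further pathway list the genes with an adjusted p under 0.05 and the 4 with the highest mean CPM, the 3 genes most like the leading B and T cell member, and the 2 highest of each marker list. Cd247, Il7r, Trbc1 and Zap70 (unadjusted p), Trbc2, Trac and Cd8b1 were added after their values were seen. No source states directly how separate the pools of a group were. For plasma collection, the methods count fewer mice per genotype than separate pools of 2 to 3 mice would need for all dystrophic libraries. The same holds for the hypertrophic libraries if they came from only Mstn-null or only MAGIC F1 mice. Whether libraries of a group shared mice was not tested, and n counts libraries. The tests treat libraries as separate, so that p-values measure the spread between these libraries.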

Additional observations from a re-analysis of the deposited data

Results flagged for a closer look

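In the groups of 6 libraries, 10 values stood farther from their neighbours than Dixon's 95% limit allows, among 21 groups examined. Chance flags about 1 in 20 groups whose values are normally distributed, and a group with 1 library above 0 is marked by construction. That was the case for Cd3e in dystrophic replicate 5 (25.6 CPM), Cd3g in hypertrophic replicate 2 (75.2 CPM), Cd8a in hypertrophic replicate 6 (78.3 CPM), and Cd4 in dystrophic replicate 2 (173 CPM) and hypertrophic replicate 2 (21.7 CPM). Cd79a in hypertrophic replicate 5 stood at 593 CPM, with 170 CPM as the next value of its group. Ms4a1 in dystrophic replicate 1 stood at 116 CPM, with 39.8 CPM next. Cd3d in dystrophic replicate 3 stood at 193 CPM, with 41.5 CPM next. Cd3g in dystrophic replicate 6 stood at 90.3 CPM, with 20.1 CPM next. The summed B cell level of hypertrophic replicate 6 was 1995 CPM, with 901 CPM next.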

How the results depend on the processing

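Of 472 values computed under alternatives, 455 kept their direction and side of the threshold or stayed within the spread between libraries. Many of the 472 could hardly have changed, such as the adjusted calls of the exact tests, so that this share is no measure of stability. The others were 15 log2 fold changes of Ighm or Cd3d that changed sign and 2 counts of members called. DESeq2 called 2 members for dystrophic against WT and 2 for hypertrophic against WT (Cd3g and Cd8a), where edgeR called 0; the 645 adjusted p-values it gave as missing stayed missing. All other fits, filters, groupings and left-out libraries gave 0 members by edgeR, the permutation test and Fisher's test. Of these, the permutation test could not pass without a WT library (smallest p 0.0714 against WT), nor could either exact test with 3 libraries a group (0.1), so that their 0 says nothing there. With all libraries, too, the adjusted 0 of the exact tests says little, because of the smallest p given above. The log2 fold changes of Ighm and Cd3d, none of which passed a test, changed sign under several settings. For Ighm, hypertrophic against WT became -0.049 in the lower title series, and hypertrophic against dystrophic became 0.035 with DESeq2 and 0.041 without TMM. For Cd3d, hypertrophic against WT became -0.0024 with the crossed libraries exchanged, and hypertrophic against dystrophic became -1.57 with them exchanged and -0.55 with them left out. Leaving out 1 library at a time, Ighm ran from 0.10 to 0.62, -0.20 to 0.58 and -0.77 to 0.22, and Cd3d from -0.37 to 1.80, 0.74 to 3.03 and 0.41 to 1.83, for dystrophic against WT, hypertrophic against WT and hypertrophic against dystrophic. The cause was not tested. With the median in place of the sum, the B cell level was the higher in 14 of 15 libraries. The alternative at 328710 reads was chosen after seeing the data. No paired analysis was possible because the labels give no replicate numbers shared between groups. WT replicate 1, with 27227 reads, limits what the 3 WT libraries can show.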
